A study of Mus musculus with 912 samples.

Results

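Tnik and 5 related mouse kinase genes, Mink1, Map4k2, Map4k3, Map4k4 and Map4k5, were followed through every neuron type and exposure group of a single-nucleus RNA-seq study of the hippocampus. They are 6 of the 42772 genes with values in every table, and all 6 passed the filter on low counts in each comparison. Tnik was chosen by its measured level, which differed between FOS+ and FOS- dentate gyrus (DG) nuclei of re-exposed mice, and the other kinases for their kinship to it. The Tnik values of that contrast are therefore a description here, with no test, as are the values of the other kinases in it.

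The series holds 912 nuclei of wild-type female C57BL6 mice aged 7.75 to 9 weeks, each nucleus sequenced on its own with SmartSeq2. In 1 set of 360 nuclei, mice stayed in the home cage (HC) or spent 15 min in an unfamiliar environment and were taken 1 h later. Nuclei of this set were sorted by antibodies to NEUN, PROX1, CTIP2 and FOS, and the submitters predicted their type as DG, CA1, CA3, Sub, VIP, Ivy, Pvalb or Th. In the other set of 552 DG nuclei, sorted as PROX1+, CTIP2+ and ARC+, mice were taken 4 h or 5 h after the same exposure, or were exposed a second time after 4 h and taken 1 h later. The second exposure was to the same environment (A>A) or to another one (A>C), and these nuclei were split into FOS+ and FOS-, while those of 4 h and 5 h were FOS-. After the filters 783 nuclei of 31 animals were used, with total counts from 142275 to 5885216 and a median of 1251690. The animal was the replicate, told apart by mouse number, exposure and plate date, and a mean over animals takes in those with at least 2 nuclei of the group. DG nuclei came from 1 such animal at 1 h, 2 in HC, 2 at 4 h and 4 at 5 h.

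TNIK, MINK1 and MAP4K4 form the misshapen branch of the Ste20 kinases, with a kinase domain at the start of the protein and a citron homology domain at its end. TNIK binds TRAF2 and NCK, acts downstream of the small GTPase RAP2, phosphorylates TCF4 in the nucleus to activate Wnt target genes and is enriched at the postsynaptic density of neurons. MAP4K2, MAP4K3 and MAP4K5 belong to the germinal centre kinase branch, which feeds the JNK cascade, and MAP4K kinases also act on LATS kinases of the Hippo pathway. FOS and ARC are products of immediate early genes and mark neurons that were recently active.

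The coding sequences of these kinases are close enough that reads could in principle be mixed, so the longest stretches they share are shown. On GRCm38 with the GENCODE vM21 annotation, Tnik lies on chr3:28263214-28675858 on the plus strand, Map4k4 on chr1:39900913-40026310 on the plus strand and Mink1 on chr11:70562881-70614483 on the plus strand. Tnik and Map4k4 share at most 23 coding bases in a row, in capitals in the following stretch of the kinase domain, which spans the exon pieces chr3:28493993-28494023 and chr3:28505753-28505804 of Tnik and chr1:39962204-39962234 and chr1:39973927-39973978 of Map4k4.
Tnik: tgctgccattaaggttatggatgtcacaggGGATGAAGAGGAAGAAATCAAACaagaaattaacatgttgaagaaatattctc
Map4k4: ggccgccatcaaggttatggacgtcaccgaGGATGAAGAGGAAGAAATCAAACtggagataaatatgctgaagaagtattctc

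Tnik and Mink1 share at most 20 coding bases in a row, again in capitals, in an exon of the kinase domain at chr3:28542018-28542097 in Tnik and chr11:70602733-70602812 in Mink1.
Tnik: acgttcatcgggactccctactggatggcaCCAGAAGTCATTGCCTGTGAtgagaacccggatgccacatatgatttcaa
Mink1: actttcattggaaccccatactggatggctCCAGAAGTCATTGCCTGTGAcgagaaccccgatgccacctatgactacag

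Both runs are shorter than a read of 50 bases, and none of the 19402 stretches of 50 bases in Tnik transcripts occurs in another kinase of the family. Only 26 of them (0.134%) occur in any other annotated gene. Map4k5, on chr12:69803750-69893200 on the minus strand, is the least certain member: 603 of its 8742 stretches (6.9%) lie in genes of the opposite strand, among them Atl1. The kit does not mark strand, so reads of Map4k5 and of these genes cannot be told apart. The share was 1.18% for Mink1, 0.613% for Map4k2 (chr19:6341135-6355615), 0.6% for Map4k3 (chr17:80580512-80728485) and 0.0302% for Map4k4.

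Per length of transcript, Tnik had the highest mean level of the 6 kinases in every group but FOS- Ivy nuclei, where Map4k4 stood at 3.54 and Tnik at 3.50. Levels are the submitters' log2(TPM+1), averaged over the nuclei of an animal and then over animals. In HC DG nuclei the 2 animals stood at 7.82 and 8.16 (7.99 ± 0.24, SD, n = 2), against 3.19 for Mink1, 1.73 for Map4k4, 1.67 for Map4k5, 0.55 for Map4k3 and 0.42 for Map4k2. Tnik had the highest log2(TPM+1) of the 6 kinases in 21 of 25 HC DG nuclei, in 23 of 27 FOS- and 21 of 26 FOS+ DG nuclei at 1 h, and in 12 of 19 HC CA1 nuclei. It was detected, with at least 1 count, in all 25 HC DG nuclei.

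**Figure D1:**
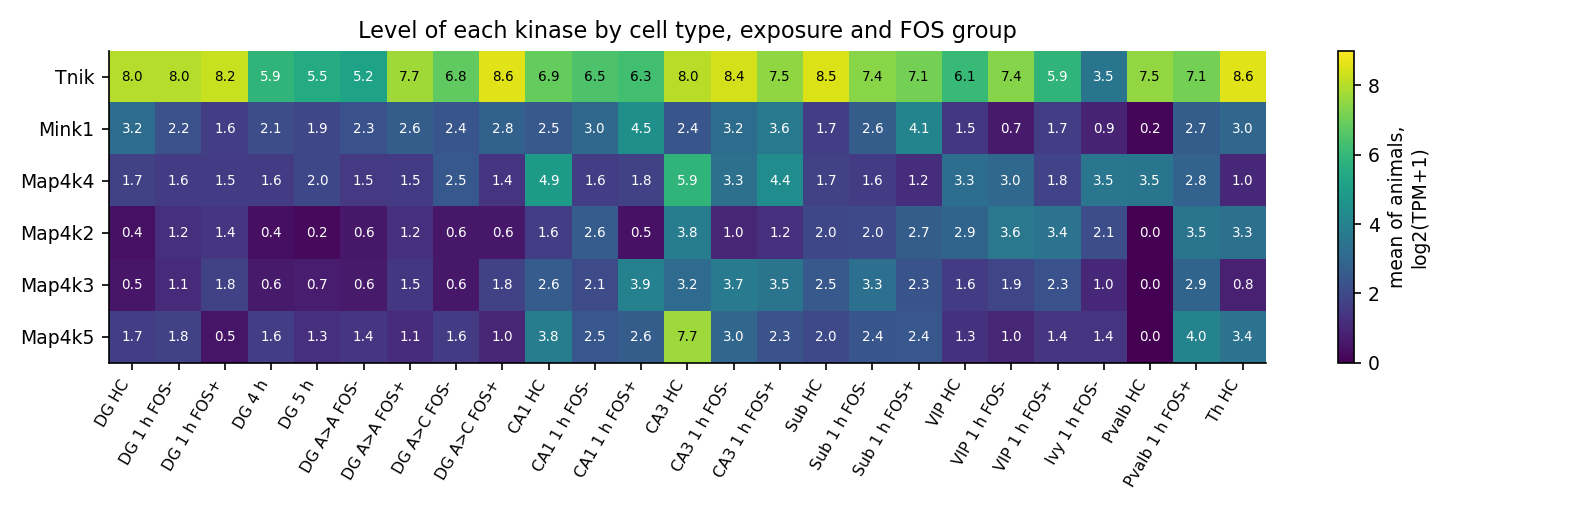
Mean log2(TPM+1) of each kinase (rows) in every group of cell type, exposure and FOS sort with an animal of at least 2 nuclei (columns), averaged over animals. Higher levels are brighter, and Tnik holds the brightest row, from 3.50 in FOS- Ivy nuclei to 8.59 in FOS+ DG nuclei of A>C.

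Across cell types the Tnik level ran from 3.50 to 8.59 without a clean order. The highest mean was that of FOS+ DG nuclei of A>C. Of the other types, Th nuclei in HC (8.56, 1 animal), Sub nuclei in HC (8.44 and 8.63 in the 2 animals), FOS- CA3 nuclei at 1 h (8.91 and 7.95) and HC CA3 nuclei (8.04, 1 animal) also averaged above HC DG nuclei, as did DG nuclei at 1 h, both FOS+ (8.24) and FOS- (8.01). HC CA1 nuclei were lower on average but spread widely, with 6.83, 4.74 and 9.01 in the 3 animals (6.86 ± 2.14). HC VIP nuclei gave 7.72, 4.83 and 5.61 (6.05 ± 1.49). The lowest group was FOS- Ivy interneurons at 1 h, with 3.35, 3.63 and 3.52, from 7 nuclei in all. In the next group of the order, the FOS- nuclei of A>A, the lowest animal stood at 3.47, within the range of the Ivy animals, so the ranges overlapped. Among neighbours in the order that both had at least 2 animals, ranges overlapped in each case for Tnik.

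The edgeR quasi-likelihood test on summed counts found no kinase of the 6 to differ between DG, CA1 and VIP nuclei that were FOS-. Of all genes tested, 0.13% were called between DG and CA1, 0.645% between DG and VIP and 0.443% between CA1 and VIP. For Tnik the log2 fold change was 0.40 ± 0.48 (SE) for DG over CA1 (adjusted p = 0.988), 0.87 ± 0.49 for DG over VIP (adjusted p = 0.554) and 0.47 ± 0.41 for CA1 over VIP (adjusted p = 0.817). Map4k2, which acts on the JNK cascade, came nearest to a call: its level in VIP nuclei was 4.18, 1.23 and 3.33 in HC and 3.19, 4.25 and 3.27 in FOS- nuclei at 1 h, against 0.84 and 0 in HC DG nuclei and 1.23 in FOS- DG nuclei at 1 h. All VIP animals but 1 lay above the DG animals, and that animal lay at the level of the DG animal at 1 h. The log2 fold change of DG over VIP was -4.06 ± 1.72 (p = 0.0333, edgeR adjusted p = 0.372). DESeq2 placed the same difference past the threshold (-4.18, adjusted p = 0.0239), where it called 2.64% of the genes tested as lower in DG.

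At 1 h after exposure the Tnik level was 8.24 in FOS+ and 8.01 in FOS- DG nuclei of the animal that gave both. The sort itself was plain in the RNA, with Fos at 3.84 and Arc at 9.75 in the FOS+ nuclei against 0.33 and 0.99 in the FOS- nuclei. The edgeR log2 fold change of Tnik was 0.36 ± 0.69 with a 95% interval from -1.08 to 1.81 (adjusted p = 1), in a comparison where 0.0451% of genes were called. The spread in this fit was estimated from the other DG groups, since each arm held 1 animal. FOS- DG nuclei at 1 h differed from HC by 0.10 ± 0.60 (adjusted p = 1, 0.0041% of genes called).

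FOS+ and FOS- nuclei of other types showed no common direction of Tnik at 1 h. In the 3 CA1 animals FOS+ minus FOS- was 0.31, -2.06 and 1.11 on the log2(TPM+1) scale, and in the 2 VIP animals with both it was -1.91 and 0.43. CA3 animals gave -1.66 and -0.17, and Sub animals -2.59, -0.09 and 1.82. By edgeR the log2 fold change was 0.06 ± 0.56 in CA1 (adjusted p = 1) and -0.68 ± 0.63 in VIP (adjusted p = 1). Without mouse 2 of plate X151207, which gave 2 FOS- nuclei, the VIP value was -0.10. No gene was called in either comparison (0% of 14507 and 0% of 14736), while 629 and 713 genes had an unadjusted p below 0.05 and DESeq2 called 227 and 174. The FOS effect on Tnik did not differ between types past the threshold: the difference was 0.33 ± 1.08 for DG minus CA1, 0.92 ± 1.12 for DG minus VIP and 0.59 ± 0.81 for CA1 minus VIP (edgeR interaction, adjusted p = 1 in each).

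In VIP nuclei that were FOS-, Tnik counts were higher at 1 h than in HC in all animals, a difference that did not pass the correction. CPM are counts scaled to library totals that were adjusted by the TMM factors of each edgeR fit. Summed counts of Tnik were 1035, 461.4 and 392.8 CPM at 1 h and 229.6, 256.3 and 235.4 CPM in HC. The groups did not overlap on this scale, and neither did 3.38% of all genes in the same direction. The log2 fold change was 1.39 ± 0.56 (p = 0.0397, edgeR adjusted p = 0.753). The sums held 2, 10 and 5 nuclei at 1 h and 2, 13 and 6 in HC. Without mouse 2 of plate X151207, the animal at 1035 CPM with 2 nuclei, the log2 fold change was 0.85. The mean log2(TPM+1) levels, 8.89, 7.04 and 6.19 against 7.72, 4.83 and 5.61, did overlap. FOS- CA1 nuclei differed from HC by -0.23 ± 0.56 (adjusted p = 1). Neither comparison called a gene (0% in each), while 893 genes of VIP and 730 of CA1 had an unadjusted p below 0.05 and DESeq2 called 317 and 261.

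**Figure D2:**
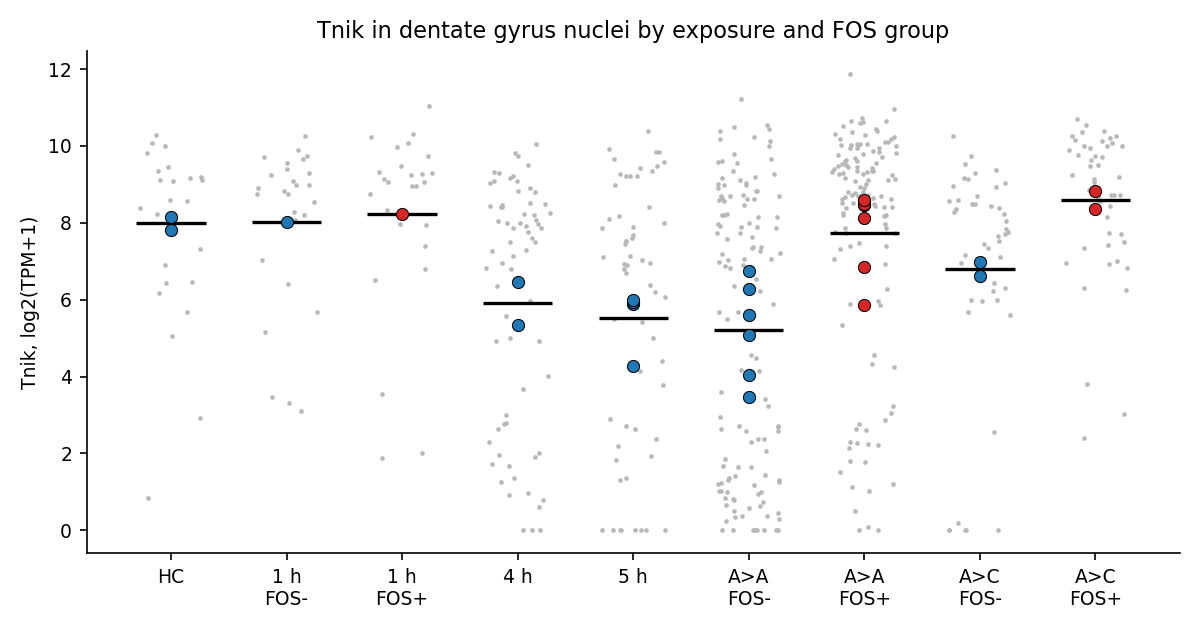
Tnik log2(TPM+1) in DG nuclei of each exposure and FOS group: small points are nuclei, large points are means of animals with at least 2 nuclei. Animal means of HC and of 1 h lie between 7.82 and 8.24, those of 4 h and 5 h between 4.28 and 6.47, and FOS+ means of A>A and A>C lie mostly above FOS- means.

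Hours after the exposure, mean Tnik levels of ARC+ DG nuclei lay below those of HC nuclei, while summed counts did not differ past the threshold. The 2 animals of 4 h stood at 6.47 and 5.34 (5.91 ± 0.80), and the 4 animals of 5 h at 5.89, 4.28, 5.95 and 6.00 (5.53 ± 0.83). Both groups lay wholly below the HC animals at 7.82 and 8.16. Tnik was 1 of 6 kinases to do so in each comparison, and no kinase lay wholly above (18.4% of all genes did at 4 h and 5.98% at 5 h). Mean levels lay wholly below HC for 24.8% of all genes at 4 h and 18.2% at 5 h, so a gap of this kind was common.

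On summed counts the same groups were close. CPM of Tnik was 637.1 and 457.1 in HC, 373.8 and 380.4 at 4 h, and 615.2, 416.4, 290.9 and 402.2 at 5 h. The 4 h animals lay below HC, as did 10.4% of all genes, and the 5 h animals overlapped with HC. The edgeR log2 fold change was -0.54 ± 0.49 at 4 h (adjusted p = 0.921, 0.246% of genes called) and -0.34 ± 0.42 at 5 h (adjusted p = 0.818, 0.262% called). Between 5 h and 4 h it was 0.19 ± 0.43 (adjusted p = 0.991), and edgeR called no gene there (0%, 1342 at an unadjusted p under 0.05, 595 by DESeq2). A fit with limma on the mean log2(TPM+1) levels gave -2.46 ± 0.82 for 5 h against HC and placed it just past the threshold (adjusted p = 0.0499), together with 10.4% of all genes as lower and 1.27% as higher. It gave -2.09 for 4 h (adjusted p = 0.231).

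Single nuclei spread further in the later groups. The share of nuclei with log2(TPM+1) above 1 averaged 97.2% in HC, 88.7% at 4 h and 87.7% at 5 h, and the mean level among those nuclei was 8.20, 6.59 and 6.32. Over single nuclei pooled across animals, the lower quartile was 6.46 in HC but 2.78 at 4 h and 2.68 at 5 h. The medians were 8.56, 7.5 and 6.94. With each nucleus thinned to 100000 counts, Tnik was detected in 94.4% of HC nuclei, 81.8% at 4 h and 75.5% at 5 h. Without thinning the shares were 100%, 94.2% and 87.7%.

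Other values moved with these groups. HC nuclei carried no ARC sort and came from the other set, on other plates, so time after exposure, sort and plate cannot be told apart. The summed level of the 3 DG markers (Prox1, C1ql2 and Dsp) was 12.4 and 14.3 in the HC animals but 6.70 to 9.78 at 4 h and 5 h. At 1 h it was 8.905 in FOS+ DG nuclei, with Tnik at 8.24, and 12.869 in FOS- DG nuclei, with Tnik at 8.01. Median total counts per nucleus were 1029082 and 558093 in HC, 2805005 and 1810215 at 4 h, and 350943 to 1776118 at 5 h. Mice 22 and 23 of 5 h, which shared a plate, had Slc17a7, the transporter that marks excitatory neurons, at 2.05 and 2.77, against 5.81 to 7.57 in the other animals of 4 h and 5 h. Mouse 22 also had 817 CPM of Fos in nuclei sorted as FOS-. The other 5 h animals had 0 to 7.32 CPM and the 4 h animals, also sorted as FOS-, 67.28 and 167.1 CPM. The part of mice 22 and 23 in the Tnik values was not tested by itself. Without these mice the edgeR log2 fold change of Tnik at 5 h against HC was -0.64 ± 0.48 (adjusted p = 0.712), and that of limma was -2.02 ± 0.91 and no longer past the threshold (adjusted p = 0.196). Summed levels of the 4 oligodendrocyte markers were 4.51 and 11.4 in HC and 1.70 to 5.50 at 4 h and 5 h. The 4 interneuron markers (Vip, Gad1, Gad2 and Slc32a1) averaged 2.13 in HC, 3.68 at 4 h and 3.37 at 5 h, with up to 5.585 in a 5 h animal. Microglial markers (Cx3cr1 and Csf1r) averaged 0.517, 1.155 and 1.104, and astrocyte markers (Gfap, Aqp4 and Slc1a3) 1.721, 1.811 and 2.552. The endothelial marker Cldn5 was at 0 in HC and at most 0.418 in an animal of 5 h.

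In re-exposed mice, the contrast by which Tnik was picked, FOS+ DG nuclei held more Tnik than FOS- nuclei. FOS+ nuclei of A>A stood at 8.47, 8.50, 8.60, 8.12, 5.86 and 6.84 in 6 animals (7.73 ± 1.12) and FOS- nuclei at 3.47, 4.05, 6.74, 6.29, 5.08 and 5.60 (5.20 ± 1.27), a difference of 2.53. The lowest FOS+ animal, mouse 26, overlapped the FOS- animals. The 4 mice that gave both kinds of nuclei, which are the same animals on the same plates, had FOS+ minus FOS- of 1.86, 1.83, 0.78 and 1.24, higher in 4 of 4 with a mean of 1.43. The other animals gave FOS+ nuclei on 1 plate and FOS- nuclei on others and differed by 4.73. Their median total counts per nucleus also differed, 767842 and 807527 for FOS+ against 2289894 and 2694302 for FOS-.

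FOS+ nuclei of A>C were at 8.83 and 8.35 (8.59 ± 0.34) and FOS- nuclei at 6.99 and 6.61 (6.80 ± 0.27). The animals did not overlap, nor did those of 15.6% of all genes in this direction. Each sort of A>C came from its own 2 mice on its own plate, so sort, animal and plate cannot be told apart there. On summed counts, CPM of Tnik in A>A was 743.8, 863.5, 1315, 1069, 312.7 and 601.8 in FOS+ nuclei and 255.9, 256.3, 546.6, 398.5, 319.5 and 419.3 in FOS- nuclei, so mouse 26 was not higher in FOS+ nuclei on this scale. In A>C it was 949.2 and 772.5 against 345.1 and 493.9. On the log2(TPM+1) scale, FOS- nuclei of A>A averaged 5.20, beside 5.91 at 4 h and 5.53 at 5 h. FOS+ nuclei of A>A averaged 7.73, beside 7.99 in HC. Single animals did not all follow: FOS- mice 19 and 20 (3.47 and 4.05) lay below every 4 h and 5 h animal. FOS+ mice 26 and 27 (5.86 and 6.84) lay below every HC and 1 h animal. Arc was high in FOS+ and in FOS- nuclei, at 9.21 and 7.99 in A>A and 9.67 and 6.33 in A>C. Fos RNA followed the sort less plainly than at 1 h: in A>A its level was 1.11, 2.07, 5.34, 2.71, 0.45 and 0.55 in FOS+ nuclei and 1.49, 0.70, 1.22, 0.83, 0.13 and 0.38 in FOS- nuclei. Mice 26 and 27 had little Fos in either sort, and the groups overlapped. In A>C it was 2.94 and 2.56 against 0.94 and 0.57, without overlap.

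The FOS- nuclei of A>A spread widely in their Tnik level. Quartiles of single nuclei, pooled over animals, were 1.32, 6.54 and 8.61 there, against 7.35, 8.79 and 9.74 in FOS+ nuclei. Animal means ran from 3.47 to 6.74 in FOS- and from 5.86 to 8.60 in FOS+ nuclei, so the quartiles take in differences between animals and plates. The share of nuclei above a level of 1 averaged 81.1% and 96.6% over animals, with mean levels of 6.26 and 7.97 among them. After thinning to 100000 counts, Tnik was detected in 67.8% of FOS- and 87.8% of FOS+ nuclei, and without thinning in 92.9% and 98.2%. Tnik was the highest of the 6 kinases in 76 of 129 FOS- nuclei and 99 of 130 FOS+ nuclei. DG markers summed to 10.9 (8.63 to 13.0 over animals) in FOS- and 9.57 (8.50 to 10.4) in FOS+ nuclei, and their part in the Tnik values was not tested.

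**Figure D3:**
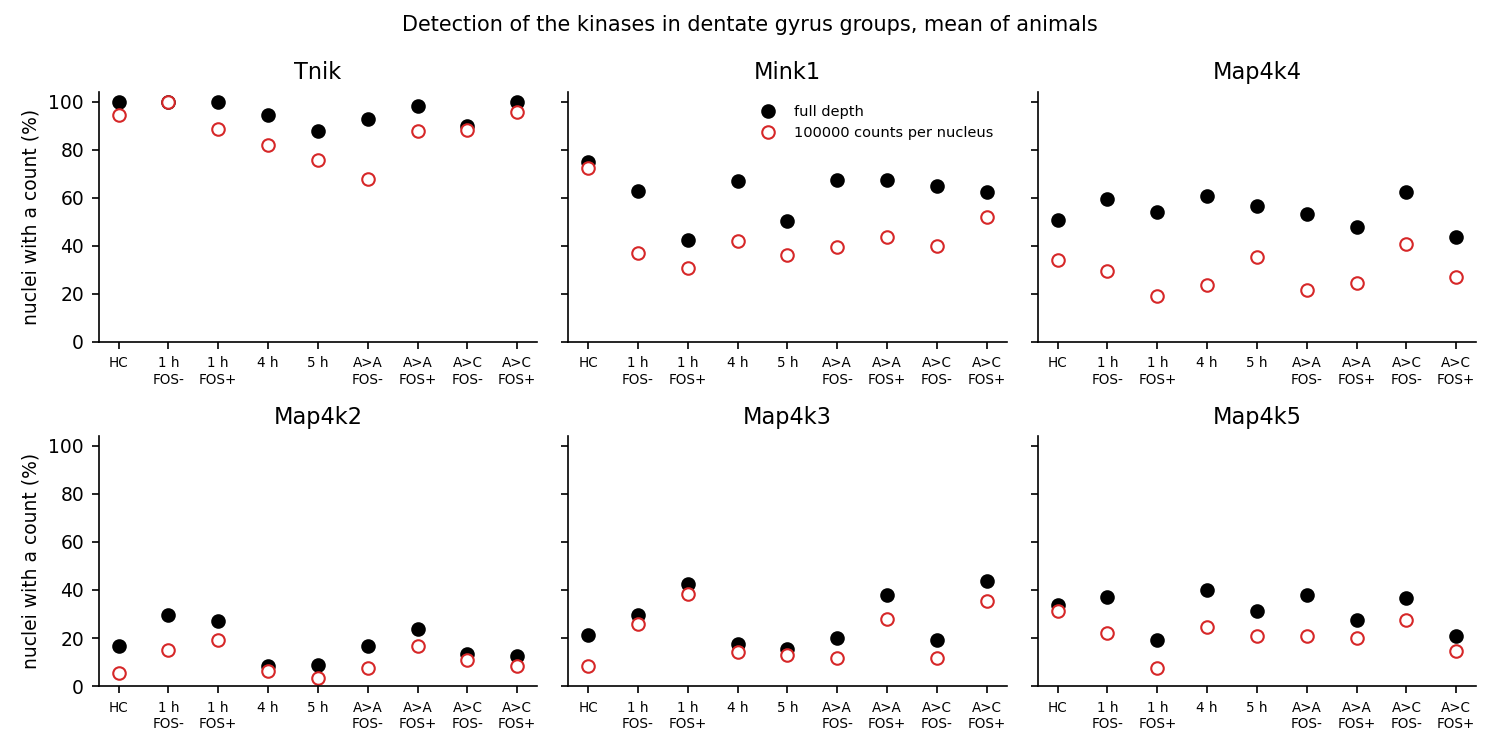
Share of nuclei with a count of each kinase (vertical axis, %) in the DG groups (horizontal axis), as the mean of animals, with all counts and with each nucleus thinned to 100000 counts. After thinning, Tnik is lowest in FOS- nuclei of A>A (67.8%) and lies above the other kinases in each group.

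Mink1, of the same branch as Tnik, averaged 1.63 to 3.19 over DG groups, with 1.91 and 4.48 in the HC animals, and FOS+ minus FOS- in the 4 A>A mice with both was -0.01, -0.45, 0.11 and -0.07. In CA1, Mink1 was higher in FOS+ nuclei of all 3 animals at 1 h, at 3.56, 4.89 and 5.02 against 2.08, 3.39 and 3.67 in FOS- nuclei, so within animals it was higher by 1.49, 1.5 and 1.35. These ranges overlapped, while CPM of the summed counts did not, at 82.1, 97.9 and 96.7 against 19.5, 32.1 and 10.1 (higher without overlap for 5.78% of all genes). The edgeR log2 fold change of 2.16 ± 1.03 did not pass (p = 0.0662, adjusted p = 1). These CA1 sums held 24, 4 and 5 FOS+ and 13, 5 and 3 FOS- nuclei. VIP nuclei held little Mink1, from 0.65 to 1.68 on average.

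Map4k3, which regulates growth through mTORC1 and JNK, averaged 0.55 to 1.78 over DG groups and 2.05 to 3.95 over CA1 groups, and the edgeR log2 fold change of DG over CA1 was -2.32 ± 1.67 (adjusted p = 0.932). In A>A its level was 0.88, 1.31, 1.51, 1.67, 1.24 and 2.13 in FOS+ nuclei and 0.49, 0.54, 0.47, 1.33, 0.66 and 0.31 in FOS- nuclei. It was higher in FOS+ nuclei of 4 of 4 mice with both, by 1.04, 0.34, 0.58 and 1.81. CPM of these mice was also higher in FOS+ nuclei, at 71.61, 92.43, 18.51 and 51.67 against 3.218, 56.09, 7.183 and 14.55. The mice with a single sort went the other way on CPM, at 16.45 and 15.11 in FOS+ against 37.3 and 67.98 in FOS- nuclei. A>C gave 2.22 and 1.34 against 0.28 and 0.85, and the single DG animal at 1 h gave 1.75 against 1.10. The animals of A>C did not overlap, as for Tnik, so this held for 2 of 6 kinases and for 15.6% of all genes.

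In CA1 at 1 h, Map4k3 was 3.83, 4.14 and 3.87 in FOS+ nuclei and 3.73, 1.57 and 0.86 in FOS- nuclei. The FOS+ animals lay wholly above the FOS- animals, as did those of 5.35% of all genes, and Map4k3 was the 1 kinase of 6 to do so. These means came from 24, 4 and 5 FOS+ and 13, 5 and 3 FOS- nuclei. In the animal with 24 and 13 nuclei the levels were close, at 3.83 and 3.73. CPM of the summed counts did overlap, at 191.7, 110.4 and 199.3 in FOS+ against 171.3, 15.74 and 5.822 in FOS- nuclei. The edgeR log2 fold change was 1.38 ± 1.35 (adjusted p = 1).

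Map4k4, which links TNF signalling to JNK and acts on cell adhesion and migration, averaged 1.36 to 2.49 over DG groups, with FOS+ nuclei of A>C at the lower end and FOS- nuclei of A>C at the upper. In the 4 A>A mice with both sorts FOS+ minus FOS- was -0.05, -0.14, 0.42 and 0.28. HC CA1 nuclei gave 2.5, 6.56 and 5.66, from 12, 4 and 3 nuclei. FOS- CA1 nuclei at 1 h gave 1.86, 2.34 and 0.73, from 13, 5 and 3 nuclei. The 2 groups did not overlap, nor did those of 3.92% of all genes in this direction. The edgeR log2 fold change was -2.86 ± 1.28 (p = 0.0532, adjusted p = 0.94).

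Map4k5 averaged 0.51 to 1.78 over DG groups and was the only kinase whose mean was lower in FOS+ than in FOS- DG nuclei in A>A (1.13 and 1.42), in A>C (0.97 and 1.59) and at 1 h (0.51 and 1.78). Its animals overlapped in A>A, with 0.01 to 2.42 in FOS+ and 0.83 to 2.17 in FOS- nuclei. In A>A this direction rests on mouse 27, without which FOS+ minus FOS- turned from -0.29 to 0.08, and on plates X160622, X161209 and X170113 it was 0.70. Its highest mean, 7.67 in HC CA3, came from 2 nuclei of 1 animal. Reads of the opposite strand, described above, may be part of these values.

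Map4k2 was low in DG at 5 h, with 0, 0.13, 0.32 and 0.48 in the 4 animals and 0.24 and 0.52 at 4 h. Its log2 fold change of 5 h over 4 h was -4.12 ± 1.72 (p = 0.0269, edgeR adjusted p = 0.835), and the CPM values did not overlap, as for 10.3% of all genes in this direction. CPM was 0, 0.104, 0.94 and 1.20 at 5 h and 1.57 and 17.88 at 4 h. The sums were 0, 1, 10 and 10 counts at 5 h and 182 and 793 at 4 h. They came from unlike library totals, 7091999 to 15395544 at 5 h against 122269314 and 49849238 at 4 h. Without mouse 21, the higher of the 4 h animals, the log2 fold change was -1.49. The blood-cell kinase Map4k1 was at 0 on average in most groups and reached at most 0.69, in HC CA1. Nrk, a further relative of the misshapen branch, averaged 1.77 to 3.73 in every group.

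Groups that did not overlap were thus spread over the kinases and directions. On mean levels, 0 of 6 kinases lay wholly apart in A>A, where 1.15% of all genes were wholly lower and 1.64% wholly higher in FOS+ nuclei. In A>C, Map4k4 lay wholly lower in FOS+ nuclei, at 1.17 and 1.55 against 1.91 and 3.07, as did 35.1% of all genes. In VIP nuclei at 1 h, Map4k4 also lay lower in FOS+ nuclei, at 2.10 and 1.54 against 2.43, 2.55 and 4.13 (6.96% of all genes), and none of the 6 lay higher (10.6%). No kinase lay wholly lower in FOS+ CA1 nuclei (5.45%), wholly higher in FOS- CA1 nuclei than in HC (4.5%), or to either side in FOS- VIP nuclei against HC (4.78% lower and 3.59% higher).

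On CPM of the summed counts, Map4k4 lay above HC at 4 h, at 29.9 and 26.0 against 22.4 and 11.2, as did 22% of all genes. No kinase lay wholly apart at 5 h from HC (6.35% of genes higher and 6.86% lower) or higher at 5 h than at 4 h (3.13%). In VIP nuclei, Mink1 was at 19.9 and 55.2 CPM in FOS+ against 0, 0.92 and 5.11 in FOS- nuclei. The groups did not overlap, nor did those of 14.8% of all genes in this direction, and no kinase lay wholly lower (4.87%). Map4k4 lay lower in FOS- CA1 nuclei than in HC on this scale too (3.48%), none lay higher, and none lay lower in FOS+ than in FOS- CA1 nuclei (4.11%) or in FOS- VIP nuclei than in HC (3.83%).

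**Figure D4:**
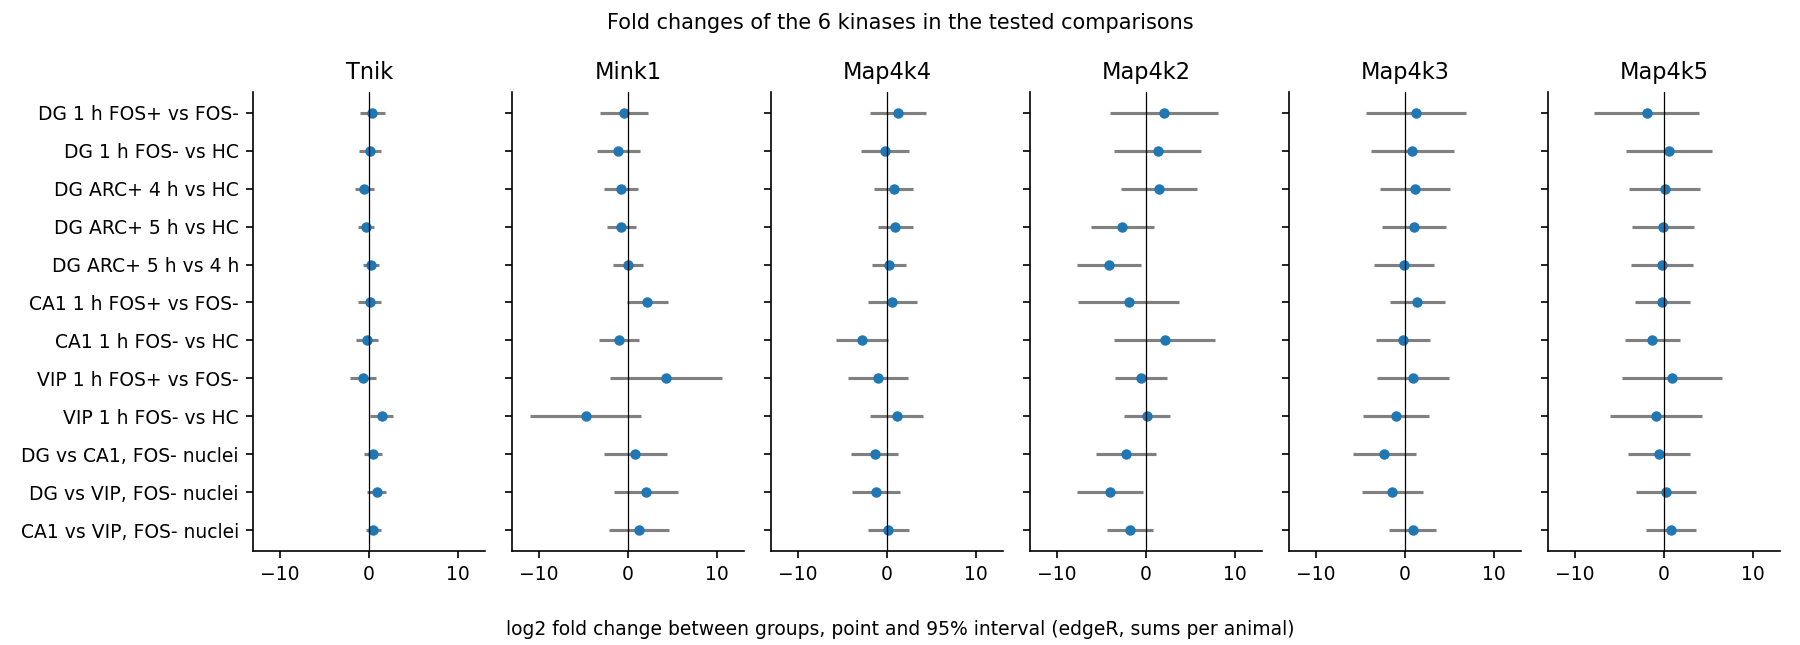
edgeR log2 fold changes of the 6 kinases (panels) in the 12 tested comparisons (rows), as points with 95% intervals. All 72 intervals but 3 include 0, and none of the 72 results passed the threshold after adjustment.

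In all, the 12 tested comparisons gave 72 results for the 6 kinases, of which 0 had an edgeR adjusted p under 0.05 and 3 had an unadjusted p under 0.05. DESeq2 called 1 of the 72 (Map4k2 in DG over VIP) and limma 1 (Tnik at 5 h over HC). The intervals were wide. For Tnik in DG they reached from -1.56 to 0.49 at 4 h and from -1.22 to 0.53 at 5 h, and for the scarcer kinases they spanned several log2 units.

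The pathways around these kinases gave no called gene either. Over all genes, 2.8% to 11.8% had an unadjusted p under 0.05 and 0% to 0.645% were called, depending on the comparison. Of the JNK cascade (20 genes) 236 results were tested and 23 had an unadjusted p under 0.05, with a lowest edgeR adjusted p of 0.112. Wnt and TCF signalling (14 genes) gave 144 results with 4 under 0.05 and a lowest adjusted p of 0.237. Partners of TNIK (9 genes) gave 106 with 5 and 0.166, and the Hippo pathway (14 genes) gave 138 with 9 and 0.188.

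At 5 h against HC, 8 of 20 JNK cascade genes had a positive and 12 a negative log2 fold change, with a median of -0.46 beside 0 over all 24405 genes. Mapk9, which encodes JNK2, had -3.26 ± 1.22 (p = 0.0145, edgeR adjusted p = 0.384), with 545 and 2210 summed counts in HC and 19 to 188 at 5 h. Map3k1, a kinase upstream of JNK, had 6.36 ± 2.68 (adjusted p = 0.449) and Map3k9, a mixed-lineage kinase, -4.82 ± 2.39 (adjusted p = 0.499). Summed counts of Map3k1 were 0 and 19 in the HC animals and 62 to 846 at 5 h, with mean levels of 0.07 and 0.687. Summed counts of Map3k9 were 10 and 910 in the HC animals and 0 to 73 at 5 h. The medians of the other lists were 0.32 for Wnt and TCF signalling, 0.35 for partners of TNIK and 0.35 for the Hippo pathway.

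Among partners of TNIK, Traf2, an adaptor, had 2.97 ± 1.65 (adjusted p = 0.537), Nck1, another adaptor, 1.84 ± 1.84 (adjusted p = 0.745) and Rap2a, the GTPase upstream of TNIK, -4.94 ± 2.80 (adjusted p = 0.542). Summed counts of Traf2 were 0 and 64 in HC and 37 to 286 at 5 h, and those of Nck1 76 and 81 in HC and 2 to 542 at 5 h. The Rap2a value rests on 1 HC animal, with 1 and 2279 summed counts in HC and 0 to 67 at 5 h. Axin2, a feedback inhibitor of Wnt signalling, had 2.38 ± 2.20 (adjusted p = 0.714), and Lats2, a Hippo kinase, 3.58 ± 2.29 (adjusted p = 0.58) from at most 27 counts an animal. Summed counts of Axin2 were 13 and 37 in HC and 0 to 387 at 5 h. Its mean log2(TPM+1) went the other way, 1.045 in HC and 0.814 at 5 h. Tcf7l2 and Mob1a had no count in HC, and Tcf7 and Wwtr1 none at 5 h, so no fold is given. At 4 h the medians were 0.13, 0.36, 0.49 and -0.29 for the JNK, Wnt, TNIK partner and Hippo lists, beside 0.23 over all genes.

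Over the 45 units of an animal and group with at least 5 nuclei, the genes whose mean log2(TPM+1) was most like that of Tnik, of 5036 genes, were Gm9806 (Pearson r = 0.793), Vps13a (0.775), Rap1gap (0.745), Gramd1b (0.695) and Ppib (0.668). Vps13a, which encodes a lipid transfer protein, and the pseudogene Gm9806 overlap on opposite strands, so they count the same reads in part. Rap1gap encodes an activator of the GTPase activity of RAP1, Gramd1b a sterol carrier and Ppib a folding enzyme of the endoplasmic reticulum. Mink1 ranked 674 (r = 0.356). The units share animals, plates and depth, and these values are a description.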

How the data were processed

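RNA of single nuclei was amplified with SmartSeq2 and read as single 50-base ends. The authors trimmed reads with Solexa-QA++ and quantified them with RSEM and Bowtie on mm10 with the Ensembl annotation (tool versions and release not given in the sources used here). They deposited expected counts per gene, which are all whole numbers, and log2(TPM+1) values, in a pair of tables for the 360 HC and 1 h nuclei and a pair for the 552 later nuclei, normalized nucleus by nucleus. Amplified reads carry no molecular identifiers, so counts of reads are not counts of molecules. The intervals printed come from the edgeR fits over animals and include the spread between animals. The SE of an edgeR log2 fold change was derived from the test, as its absolute value over the square root of the F statistic. The intervals were built from this SE and so restate the unadjusted test.

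Of all nuclei 818 passed a minimum of 100000 aligned reads and of 4000 detected genes (log2(TPM+1) over 1), and 35 FOS- nuclei of HC and 1 h with Arc above 2.5 were left out, after the study's own rule. Counts were summed per animal and group with at least 2 nuclei and tested with the edgeR 4.0.16 quasi-likelihood test (TMM, filterByExpr, Benjamini-Hochberg adjustment over all genes tested, threshold 0.05), with 1 fit for DG, 1 for CA1, 1 for VIP and 1 for the types, which had exposure as a covariate. Alternatives used DESeq2 1.42.0, limma 3.58.1 on mean log2 levels of at least 0.5 over animals, other filters and animals left out. Scripts were tested on simulated data. Library totals differ between nuclei, and detection shares were therefore also computed with each nucleus thinned to 100000 counts.

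The 6 kinases, the pathway and marker lists and the comparisons were chosen with earlier results of these data known. Besides the kinases, the genes named are Map4k1 and Nrk, Fos and Arc, the 5 genes most like Tnik over units of at least 5 nuclei with a mean level of at least 2, and of each list the genes called and up to 3 with the largest fold change at 5 h over HC, a comparison chosen after its values were seen. FOS+ and FOS- nuclei of 1 mouse share the animal, so pairing comes from the mouse numbers. Deviations of the same animal from the group means correlated by 0.00114 to 0.0759. Mouse numbers 19 and 20, each on 2 plates of A>A, were taken as 1 animal each. The labels give more than 1 age within 5 of the animals so defined, so a mouse number may not always mark 1 animal. No doublet caller was run, since nuclei were sorted singly.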

Additional observations from a re-analysis of the deposited data

Results flagged for a closer look

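In 18 sets of values, 1 for each kinase in each DG group of at least 4 animals, the highest or lowest animal was compared with the others, and chance alone sets 1 animal apart in about 5% of such sets. Tnik in ARC+ DG nuclei at 5 h was 4.28 in mouse 23, from 6 nuclei, beside a median of 5.92 over the 4 animals, and its gap to the next animal took up 0.939 of the range. This mouse also had low Slc17a7 (2.77), as had mouse 22 of the same plate (2.05), whose Tnik level was 5.89. Map4k3 in FOS- nuclei of A>A was 1.33 in mouse 25 beside a median of 0.51 over the 6 animals, and its gap took up 0.66 of the range.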

How the results depend on the processing

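Of 149 alternative values of the Tnik tests, 16 had the other sign and 1 passed the threshold (limma at 5 h over HC). Counts of genes called moved with single animals. Without mouse 6 of HC (plate X160324) they were 61 for DG FOS- at 1 h over HC, 180 for 4 h, 204 for 5 h and 45 for DG over VIP, and without mouse 7 of that plate they were 0, 17, 20 and 48. Without mouse 17 or 21 of 4 h, 34 and 30 genes were called at 4 h over HC, and without mouse 8 or 9 of 5 h, 1 and 4 at 5 h over 4 h. Without HC mouse 5 (plate X160118) 61 were called for DG over VIP and 44 for CA1 over VIP, and without mouse 3 of 1 h (plate X151214) 32 for DG over VIP. The 20 calls of DG over CA1 became 6 to 12 without mouse 2, 3, 4 or 10 of 1 h or mouse 3, 6, 7 or 8 of HC. With DESeq2 size factors the median log2 fold change of all genes at 4 h over HC was 0 in place of 0.23, and that of Tnik -0.83 in place of -0.54. limma called 145 genes higher and 1189 lower at 5 h over HC, where edgeR called 57 and 7 and DESeq2 1330 and 657. At 4 h it called 135 and 350, edgeR 60 and 0, and DESeq2 813 and 198. The fits without the 5 h mice 22 and 23 were chosen after seeing the data. The causes of these changes were not tested. With DESeq2 1057 genes were called for DG FOS+ over FOS- at 1 h, 616 for DG FOS- at 1 h over HC, 1011 for 4 h over HC, 1987 for 5 h over HC, 595 for 5 h over 4 h, 227 for CA1 FOS+ over FOS- at 1 h, 261 for CA1 FOS- at 1 h over HC, 174 for VIP FOS+ over FOS- at 1 h, 317 for VIP FOS- at 1 h over HC, 329 for DG over CA1, 831 for DG over VIP and 950 for CA1 over VIP. With DESeq2 the log2 fold change was -0.087 for Tnik in DG FOS- at 1 h over HC, -0.26 for Map4k5 in 4 h over HC, 0.15 for Mink1 in 5 h over 4 h, 0.090 for Map4k3 in 5 h over 4 h, -0.00055 for Tnik in CA1 FOS+ over FOS- at 1 h and -0.011 for Map4k4 in CA1 over VIP. With the size factors of DESeq2 in edgeR 7 genes were called for DG FOS+ over FOS- at 1 h and 38 for 4 h over HC. With the size factors of DESeq2 in edgeR the log2 fold change was -0.087 for Tnik in DG FOS- at 1 h over HC, -0.26 for Map4k5 in 4 h over HC, 0.15 for Mink1 in 5 h over 4 h, 0.090 for Map4k3 in 5 h over 4 h, -0.00080 for Tnik in CA1 FOS+ over FOS- at 1 h and -0.014 for Map4k4 in CA1 over VIP. With the animal as a block 0 genes were called for DG FOS+ over FOS- at 1 h and 1 for CA1 over VIP. With the animal as a block the log2 fold change was -0.028 for Tnik in CA1 FOS+ over FOS- at 1 h, 1.39 for Map4k5 in CA1 FOS+ over FOS- at 1 h and -0.21 for Tnik in CA1 over VIP. With limma on mean levels 101 genes were called for DG FOS+ over FOS- at 1 h, 6 for DG FOS- at 1 h over HC, 485 for 4 h over HC, 1334 for 5 h over HC, 1 for 5 h over 4 h, 85 for DG over CA1, 247 for DG over VIP and 348 for CA1 over VIP. With limma on mean levels the log2 fold change was -0.021 for Map4k4 in DG FOS+ over FOS- at 1 h, -0.041 for Map4k2 in 4 h over HC, -0.14 for Map4k4 in 4 h over HC, -0.044 for Map4k5 in 4 h over HC, -2.46 for Tnik in 5 h over HC, -0.38 for Tnik in 5 h over 4 h, 0.051 for Map4k3 in 5 h over 4 h, -0.21 for Tnik in CA1 FOS+ over FOS- at 1 h, 0.19 for Map4k5 in CA1 FOS+ over FOS- at 1 h, 0.54 for Mink1 in CA1 FOS- at 1 h over HC, 0.31 for Map4k3 in VIP FOS- at 1 h over HC, -0.22 for Map4k4 in VIP FOS- at 1 h over HC and -0.036 for Tnik in CA1 over VIP. With mice 19 and 20 split by plate 5 genes were called for DG FOS+ over FOS- at 1 h, 0 for DG FOS- at 1 h over HC and 36 for 5 h over HC. With mice 19 and 20 split by plate the log2 fold change was 0.018 for Mink1 in 5 h over 4 h. With no limit on Arc in FOS- nuclei 41 genes were called for 5 h over HC and 103 for CA1 over VIP. With no such limit on Arc the log2 fold change was -0.27 for Map4k4 in CA1 FOS+ over FOS- at 1 h and 0.0052 for Tnik in CA1 FOS- at 1 h over HC. With sums of at least 5 nuclei 10 genes were called for DG over CA1. With sums of at least 5 nuclei the log2 fold change was 0.78 for Map4k2 in CA1 FOS+ over FOS- at 1 h, -0.72 for Map4k4 in CA1 FOS+ over FOS- at 1 h, -0.42 for Map4k2 in CA1 FOS- at 1 h over HC, -0.37 for Map4k5 in DG over VIP and -0.82 for Map4k4 in CA1 over VIP. Without the filter on low counts 7 genes were called for DG over CA1. Without the 5 h mice of plate X170224 the log2 fold change was 0.81 for Map4k5 in 5 h over HC, -0.10 for Tnik in 5 h over 4 h, 0.69 for Mink1 in 5 h over 4 h, 0.23 for Map4k3 in 5 h over 4 h and 0.75 for Map4k5 in 5 h over 4 h. With limma and without these mice 835 genes were called for 5 h over HC and 9 for 5 h over 4 h. With limma and without these mice the log2 fold change was 0.56 for Map4k5 in 5 h over HC, 0.58 for Mink1 in 5 h over 4 h, 0.020 for Map4k2 in 5 h over 4 h, 0.42 for Map4k3 in 5 h over 4 h and 0.61 for Map4k5 in 5 h over 4 h. With 1 animal left out at a time, the count of genes called ran from 44 to 67 for CA1 over VIP, 0 to 61 for DG FOS- at 1 h over HC, 17 to 180 for 4 h over HC, 0 to 4 for 5 h over 4 h, 20 to 204 for 5 h over HC, 6 to 14 for DG over CA1 and 32 to 98 for DG over VIP. The log2 fold change of Map4k2 then ran from -11.89 to 0.77 for CA1 FOS+ over FOS- at 1 h, -0.028 to 2.68 for CA1 FOS- at 1 h over HC, -1.17 to 11.36 for 4 h over HC, -3.65 to 7.24 for 5 h over HC, -1.43 to 0.29 for VIP FOS+ over FOS- at 1 h and -0.40 to 0.51 for VIP FOS- at 1 h over HC. That of Map4k3 ran from -2.81 to 1.77 for CA1 FOS- at 1 h over HC, -0.13 to 1.69 for CA1 over VIP, -0.16 to 6.34 for DG FOS- at 1 h over HC, -1.82 to 6.62 for 4 h over HC, -0.99 to 2.83 for 5 h over 4 h and -1.62 to 0.74 for VIP FOS- at 1 h over HC. That of Map4k4 ran from -0.37 to 0.95 for CA1 over VIP, -0.68 to 0.32 for DG FOS- at 1 h over HC, -0.011 to 0.48 for 5 h over 4 h, -2.53 to 0.97 for VIP FOS+ over FOS- at 1 h and -0.30 to 1.49 for VIP FOS- at 1 h over HC. That of Map4k5 ran from -1.52 to 2.14 for CA1 FOS+ over FOS- at 1 h, -0.47 to 0.47 for 4 h over HC, -1.15 to 0.33 for 5 h over 4 h, -1.07 to 0.29 for 5 h over HC, -1.22 to 0.012 for DG over CA1 and -0.44 to 0.65 for DG over VIP. That of Mink1 ran from -1.82 to 0.49 for DG FOS- at 1 h over HC, -1.50 to 0.81 for 4 h over HC, -0.38 to 0.34 for 5 h over 4 h, -1.50 to 0.80 for 5 h over HC and -0.039 to 1.25 for DG over CA1. That of Tnik ran from -0.13 to 0.16 for CA1 FOS+ over FOS- at 1 h, -0.54 to 0.19 for CA1 FOS- at 1 h over HC, -0.12 to 0.36 for DG FOS- at 1 h over HC and -0.0069 to 0.34 for 5 h over 4 h. For Tnik values that kept their sign it ran from -0.76 to -0.28 for 4 h over HC, -0.56 to -0.085 for 5 h over HC, -1.58 to -0.098 for VIP FOS+ over FOS- at 1 h, 0.85 to 1.65 for VIP FOS- at 1 h over HC, 0.24 to 0.73 for DG over CA1, 0.66 to 1.12 for DG over VIP and 0.23 to 0.85 for CA1 over VIP. That of Map4k2 ran from -5.00 to -1.49 for 5 h over 4 h. Where an arm is left without counts, such a value depends on the prior count and is no bound. The A>A difference of Tnik, FOS+ minus FOS-, was 4.73 on plates X160622, X161209 and X170113, 1.01 on plate X021618 and 1.85 on plate X170525, and 2.18 to 2.88 with 1 animal left out. With the animal as a block it was 1.43, and the block gave Tnik 0.36 for DG and -0.22 for VIP FOS+ over FOS- at 1 h and changed no call of a kinase. Other comparisons set different animals against each other and could not be blocked. Leaving out an animal was not possible for DG FOS+ over FOS- at 1 h.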
